A study of Mus musculus with 8 samples.

Results

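The immunoglobulin constant chains and the joining chain were followed in single cells from the livers of 8 C57BL/6 mice. The 10 genes were chosen by name, as the rows of the count matrix with the symbols Ighm, Ighd, Igha, Ighg1, Ighg2b, Ighg2c, Ighg3, Igkc, Iglc2 and Jchain, and make up 10 of the 55450 genes in the matrix. The 2 control mice received a normal diet and drinking water. The 3 HFD+F+CCl4 mice received a high-fat diet and a fructose solution together with carbon tetrachloride (CCl4) given into the peritoneum, and the 3 WD+F+CCl4 mice received a western diet with the same fructose and CCl4. All 8 mice were wild type, and the 6 treated mice are called NASH mice here, after nonalcoholic steatohepatitis. The livers were perfused and digested with enzymes, and dead cells were removed, so cell shares describe what survived that handling. Each library came from 1 mouse, so p-values measure the spread between mice, and with 2 controls that spread rests mainly on the NASH mice. The sources used here give no age.

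An antibody is built from heavy chains paired with kappa or lambda light chains. A naive B cell makes IgM and IgD from a single long transcript by alternative splicing, and displays both on its surface as the antigen receptor. After activation the heavy chain locus can be recombined so that the same antigen specificity is joined to an IgG or IgA constant region, which is called class switching, and a cell that becomes a plasma cell devotes much of its RNA to secreted antibody. The joining chain, Jchain, links IgM and IgA units into polymers that can be carried into bile by the polymeric immunoglobulin receptor, Pigr, which makes IgA a chain of particular interest in the liver.

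The heavy chain genes lie side by side on the minus strand of chromosome 12 in the mouse build GRCm38, as annotated in GENCODE M21. Ighm (chr12:113418558-113422730) comes first in the direction of transcription, followed by Ighd (chr12:113406604-113416324), Ighg3 (chr12:113356224-113361232), Ighg1 (chr12:113325240-113330523), Ighg2b (chr12:113302965-113307933), Ighg2c (chr12:113285325-113288932) and Igha (chr12:113254830-113260236). Igkc, the only kappa constant region, lies on the plus strand of chromosome 6 (chr6:70726435-70726966), Iglc2 on the minus strand of chromosome 16 (chr16:19198396-19200351) and Jchain on the minus strand of chromosome 5 (chr5:88519809-88527891). All but Jchain are annotated as immunoglobulin constant genes, and Jchain as protein coding. Near copies can share reads, so the last 90 coding bases of Iglc1, Iglc2, Iglc3 and the 4 IgG genes are shown to compare them. They are written 5′ to 3′ on the coding strand, with capitals at the positions where the genes of that set are not all the same.
Iglc1, chr16:19061755-19061844: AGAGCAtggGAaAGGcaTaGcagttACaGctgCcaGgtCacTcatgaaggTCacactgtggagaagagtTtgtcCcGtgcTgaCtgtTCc
Iglc2, chr16:19198539-19198628: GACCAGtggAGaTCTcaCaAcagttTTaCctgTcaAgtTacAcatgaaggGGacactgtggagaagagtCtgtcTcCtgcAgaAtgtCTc
Iglc3, chr16:19065368-19065457: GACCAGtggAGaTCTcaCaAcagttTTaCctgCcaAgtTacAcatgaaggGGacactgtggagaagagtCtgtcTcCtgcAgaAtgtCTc
Ighg1, chr12:113328979-113329068: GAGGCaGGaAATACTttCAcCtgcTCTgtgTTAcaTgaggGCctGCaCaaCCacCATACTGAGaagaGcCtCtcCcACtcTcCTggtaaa
Ighg2b, chr12:113306392-113306481: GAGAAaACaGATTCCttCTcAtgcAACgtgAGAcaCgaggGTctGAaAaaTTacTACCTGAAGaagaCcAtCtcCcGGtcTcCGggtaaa
Ighg2c, chr12:113287392-113287481: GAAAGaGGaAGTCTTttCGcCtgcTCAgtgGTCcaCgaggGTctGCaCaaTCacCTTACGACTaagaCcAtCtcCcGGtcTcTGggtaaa
Ighg3, chr12:113359668-113359757: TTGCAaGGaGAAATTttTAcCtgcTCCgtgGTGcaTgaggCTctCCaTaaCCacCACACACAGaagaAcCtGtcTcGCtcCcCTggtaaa
Iglc2 and Iglc3 differed at 1 of these 90 bases and were 98.9% identical, while Iglc1 was 67.8% identical to Iglc2. The 4 IgG genes (each in its secreted form) differed from each other at 23 to 36 of the 90 bases. Counts of Iglc2 are therefore uncertain, since reads could be shared with Iglc3, and the sources used here do not say how the authors' counting treated such reads. Iglc3 was not among the 10 genes and is given only where a result turns on it.

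Unique molecular identifiers (UMIs) mark single captured RNA molecules. Of 88581 barcodes, 80474 were kept because they held over 500 genes and drew less than 25% of their UMIs from mitochondrial genes, and 1467 of them carried a barcode sequence that was also kept in another library. The libraries held 5305581 to 63878061 UMIs in kept cells, with the fewest in control replicate 2, whose median of 992.5 UMIs per cell stood below the 2397 to 4278 of the other 7. Cells were clustered without any immunoglobulin gene, so that no antibody level could set a cell's class, and 12 classes were named from their markers. The B cell-like class held 5403 cells, led by Ebf1, Cd79a and Ms4a1, and made up 21.3% and 4.97% of kept cells in the control mice, 1.17%, 3.59% and 0.3004% in the HFD+F+CCl4 mice, and 12.2%, 4.70% and 3.79% under WD+F+CCl4. HFD+F+CCl4 replicate 3 contributed only 32 of these cells. Of the class, 8.495% of cells ranked as likely doublets, most of them in sub-clusters led by macrophage or neutrophil genes. The other 11 classes, 68246 cells, are called other cells. A further 6825 cells in 3 unnamed clusters were left out of both sets, and 2 of those clusters came almost wholly from 1 control library each and scored for both hepatocyte and B cell markers. Levels are given in CPM, a gene's UMIs summed over the cells of a class in a mouse and scaled to a fixed total of UMIs.

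A small sub-cluster of the B cell-like class was rich in antibody RNA. It held 94 cells led by Tnfrsf17, the receptor for plasma cell survival factors, and Derl3, a gene of the endoplasmic reticulum, and is called plasma cell-like. In the median plasma cell-like cell 47.3% of all UMIs came from the 10 genes, against 1.74% in the other 5309 B cell-like cells. Although these cells were 0.0305 to 0.312% of the kept cells of a mouse, they held 11.9 to 69.1% of that mouse's UMIs of the 10 genes, with the lowest share in control replicate 2. Of the 94 cells, 93 had a Jchain UMI, and in 92 kappa UMIs outnumbered lambda UMIs. Each of the 94 drew more than 80% of its heavy chain UMIs from a single heavy chain, which was Igha in 56 cells, Ighm in 24, Ighg2b in 8 and Ighg2c in 6. In contrast, the heavy chain with the most UMIs in the other B cell-like cells was Ighm in 4643 of 5309 and Ighd in 569, and 4536 of them had UMIs of both, while 139 had a Jchain UMI.

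Igha led a larger share of the counted plasma cell-like cells in the control mice than in the NASH mice. In control replicate 1, 28 of 30 plasma cell-like cells had Igha as the leading chain, and in control replicate 2, 10 of 13. In the HFD+F+CCl4 mice the counts were 2 of 6, 5 of 13 and 2 of 6, and in the WD+F+CCl4 mice 4 of 13, 1 of 3 and 4 of 10. Every NASH mouse thus had 40.0% or fewer Igha-led cells, below the 76.9% and 93.3% of the control mice. Ighm led 22 of 51 plasma cell-like cells in the NASH mice and 2 of 43 in the controls. This contrast was noticed after the counts had been seen and was given no test, and several of the NASH mice rest on 3 to 6 cells. The plasma cell-like cells were 0.278% and 0.312% of kept cells in the control mice and at most 0.128% in a NASH mouse. Of the plasma cell-like cells, 22.3% ranked as likely doublets, and their median was 11269 UMIs. In addition, 28 cells with at least 4 of 7 plasma cell markers lay in an unnamed cluster of cycling and progenitor cells and were not counted here. Another 18 such cells lay among the other cells and were not counted either. Their leading heavy chains are not given, so the contrast covers the sub-cluster only.

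**Figure D1:**
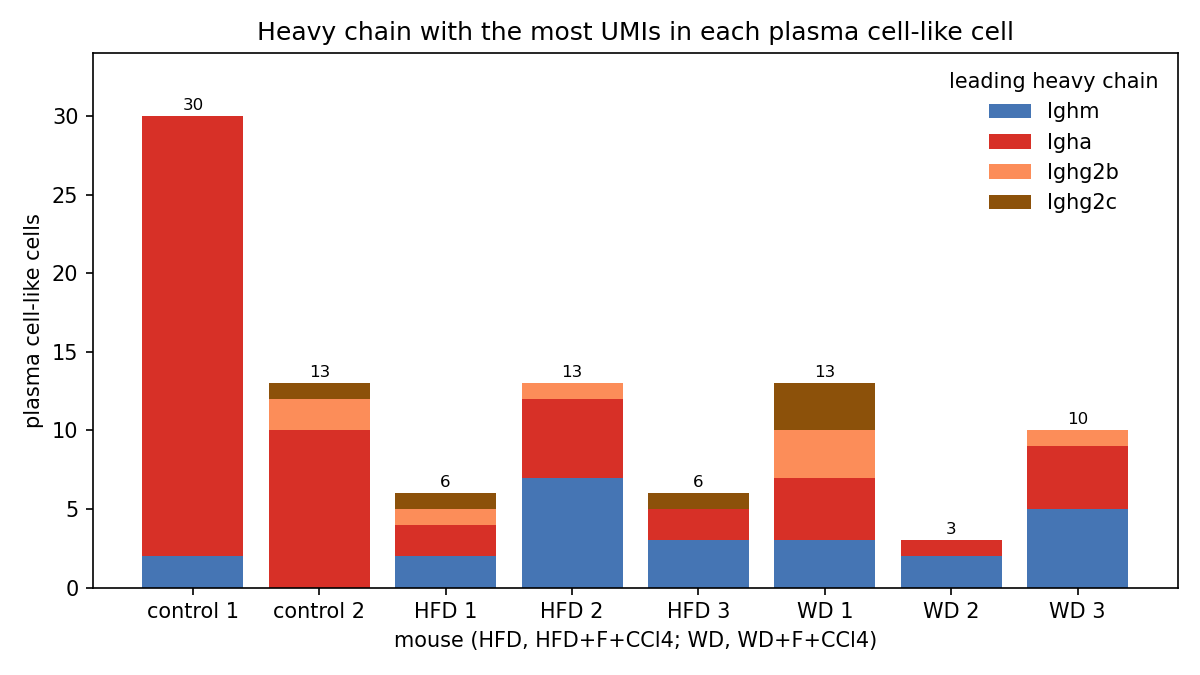
Number of plasma cell-like cells in each mouse (bar height, labelled above the bar), coloured by the heavy chain gene with the most UMIs in the cell. Igha leads 38 of the 43 cells of the 2 control mice and 18 of the 51 cells of the 6 NASH mice.

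Ighm, the constant chain of IgM, was measured in B cell-like cells at 4997 and 3335 CPM in the control mice, 10360, 11920 and 29630 CPM in the HFD+F+CCl4 mice, and 4014, 6502 and 8989 CPM in the WD+F+CCl4 mice. Igkc, the kappa light chain used by most mouse antibodies, stood at 24620 and 19350 CPM in the controls, 63550, 75580 and 164500 CPM in the HFD+F+CCl4 mice, and 29780, 25240 and 44190 CPM in the WD+F+CCl4 mice. Jchain stood at 1520 and 1517 CPM in the controls, 1951, 4286 and 6322 CPM in the HFD+F+CCl4 mice, and 1351, 1961 and 2677 CPM in the WD+F+CCl4 mice. For each of the 3 genes all HFD+F+CCl4 mice lay above both controls, and the WD+F+CCl4 mice overlapped the controls for Ighm and Jchain. In the edgeR quasi-likelihood test over all genes, Ighm was higher in HFD+F+CCl4 than in control B cell-like cells by 2.28 on the log2 scale (SE 0.509, Benjamini-Hochberg adjusted p = 0.0161), Igkc by 2.43 (SE 0.449, adjusted p = 0.00497) and Jchain by 1.69 (SE 0.447, adjusted p = 0.0402).

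Those increases were not seen among B cell-like cells other than the plasma cell-like ones. Without the 94 plasma cell-like cells, a comparison chosen after seeing the data, Ighm ranged from 2839 to 4406 CPM and Igkc from 6961 to 11490 CPM over the 8 mice, and the HFD+F+CCl4 and control mice overlapped in both. The log2 difference was then -0.23 for Ighm, -0.19 for Igkc and -0.0011 for Jchain, none of which passed the test. Jchain fell to between 0.930 and 159 CPM once these cells were left out, with 1 cell giving all of its UMIs in HFD+F+CCl4 replicate 3. The plasma cell-like cells were 4.58%, 3.58% and 18.8% of B cell-like cells in the HFD+F+CCl4 mice, 1.31% and 6.28% in the controls and 0.886%, 0.648% and 2.25% under WD+F+CCl4. The call for Ighm was also lost without control replicate 1 (log2 difference 2.74, adjusted p = 0.0823 in edgeR) or control replicate 2 (1.92, adjusted p = 0.0971 in edgeR), and that for Jchain when any 1 of 5 mice was left out. The Jchain difference was 1.82 without control replicate 1 (edgeR adjusted p = 0.205), 1.58 without control replicate 2 (0.145), 1.74 without HFD+F+CCl4 replicate 2 (0.1002), 1.19 without HFD+F+CCl4 replicate 3 (0.109), and it was 1.67 when WD+F+CCl4 replicate 2 was dropped (0.0669). With likely doublets left out, Igkc (1.22, edgeR adjusted p = 0.0681) and Jchain (0.04, edgeR adjusted p = 0.999) did not pass, and with B cells chosen by each cell's own markers none of the 3 passed (Ighm 0.89, Igkc 1.49 and Jchain 1.19, edgeR adjusted p = 0.395, 0.188 and 0.315).

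Ighd, the constant chain of IgD and a mark of mature naive B cells, was lower in HFD+F+CCl4 B cell-like cells. Its level was 1768 and 1305 CPM in the controls, 580.2, 713 and 504 CPM in the HFD+F+CCl4 mice, and 1035, 944 and 789 CPM in the WD+F+CCl4 mice. Both controls lay above all 6 NASH mice, and the difference between HFD+F+CCl4 and control was -1.17 on the log2 scale (SE 0.245, edgeR adjusted p = 0.0110). In WD+F+CCl4 the difference of -0.59 did not pass (SE 0.242, edgeR adjusted p = 0.149). Without the plasma cell-like cells Ighd stood at 1869 and 1403 CPM in the controls against 681 to 1098 CPM in the NASH mice, with a log2 difference of -1.05 in HFD+F+CCl4 (SE 0.223, edgeR adjusted p = 0.00933). The call did not pass without control replicate 1 (-0.80, edgeR adjusted p = 0.216), with likely doublets left out (-0.88, edgeR adjusted p = 0.111) or with cells chosen by their own markers (-1.98, edgeR adjusted p = 0.0523). Iglc2, a lambda light chain, stood at 2104 and 1556 CPM in the controls and 971 to 1460 CPM in the NASH mice without plasma cell-like cells, and passed in neither comparison with control.

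All 10 genes passed the filter on low counts in B cell-like cells. In HFD+F+CCl4 against control 3 of the 10 were called higher and 1 lower, where 5.75% of 9608 tested genes were called, 3.86% higher and 1.88% lower, and the median log2 difference of the 10 was 1.59 beside -0.01 for all genes. Without the plasma cell-like cells, 1 of 10 was called, where 5.64% of genes were, and the median of the 10 was -0.10 beside -0.04 for all genes. In WD+F+CCl4 against control none of the 10 was called by edgeR or DESeq2 with all B cell-like cells, and 1 had an unadjusted p under 0.05 in each tool, where edgeR called 10.9% of genes, 6.45% higher and 4.41% lower. It called 1 without the plasma cell-like cells, where 11.9% were. That 1 gene was Igha, with 133 and 609 CPM in the controls, 102, 19.3 and 13.02 CPM in the WD+F+CCl4 mice and a log2 difference of -2.61 (SE 0.604, edgeR adjusted p = 0.00857). Of these cells 19.7% and 42.8% had an Igha UMI in the controls and 1.96 to 3.23% under WD+F+CCl4. Their median depths were 1263 to 1881 UMIs. In T or NK cell-like cells the shares were 26.9% and 35.9% against 1.89 to 2.73% (1150 to 2985 UMIs). With cells thinned to the same number of UMIs, the shares over the 8 mice were 0.691 to 33.1% (median 3.94%) in B cell-like cells without plasma cell-like ones. In T or NK cell-like cells they were then 0.562 to 22.1% (median 1.17%). The Igha difference is not read as expression by B cells, and its source was not tested. In the comparison of the models with each other none of the 10 was called by either tool, while 6 in edgeR and 5 in DESeq2 had an unadjusted p under 0.05. There edgeR called 0.26% of genes, 0.0416% higher and 0.219% lower in WD+F+CCl4, and 0.252% without the plasma cell-like cells.

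**Figure D2:**
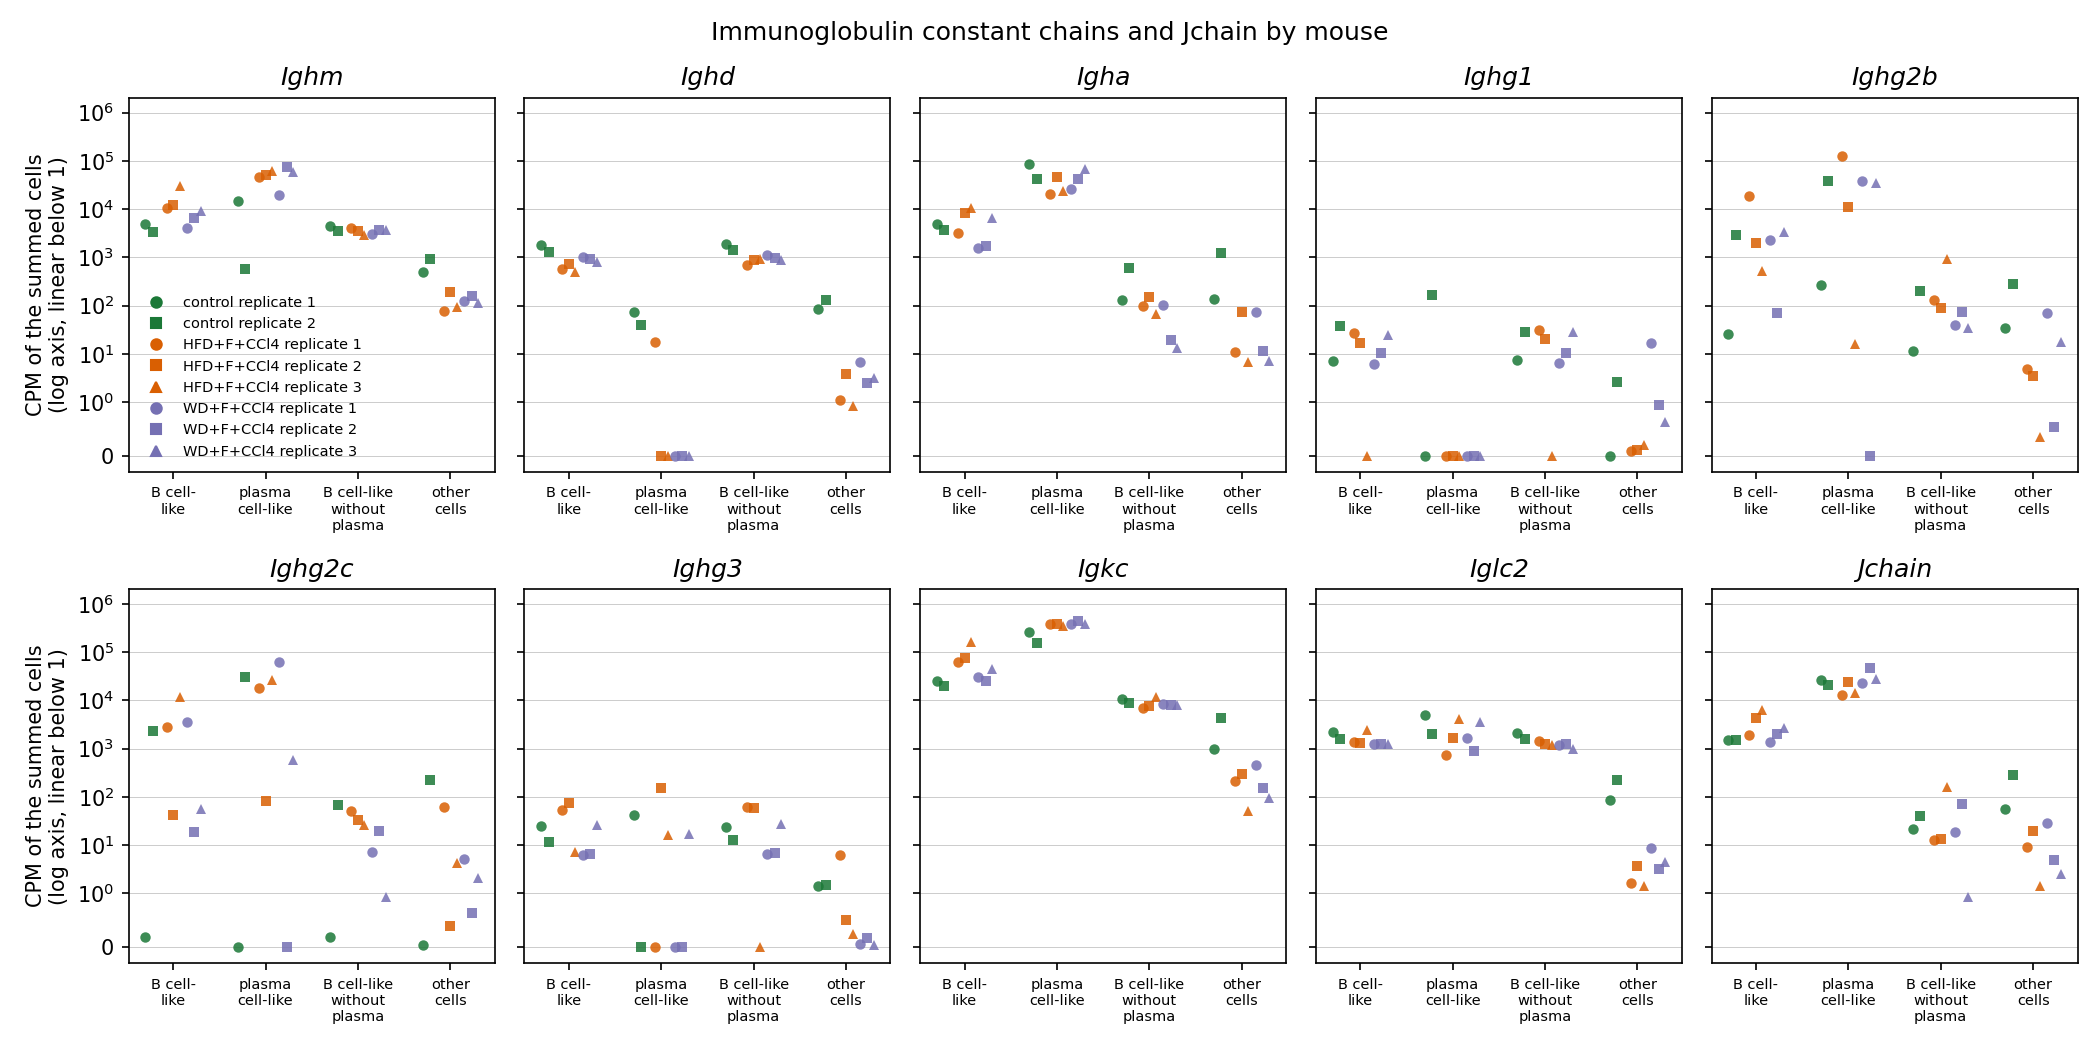
Level of each of the 10 genes in CPM (vertical axis, logarithmic above 1 and linear below) in 4 sets of cells, with 1 point per mouse, coloured by group and shaped by replicate number. Ighm, Igkc and Jchain are higher in the HFD+F+CCl4 mice among all B cell-like cells but overlap the controls once plasma cell-like cells are left out, whereas Ighd is highest in the 2 controls in both sets.

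Much of the switched heavy chain RNA came from few cells. Igha, the constant chain of IgA, was measured in B cell-like cells at 4883 and 3635 CPM in the controls, 3215, 8230 and 10500 CPM in the HFD+F+CCl4 mice, and 1586, 1696 and 6594 CPM in the WD+F+CCl4 mice, and the groups overlapped. Ighg2b, an IgG subclass, ranged from 26.3 CPM in control replicate 1 to 19010 CPM in HFD+F+CCl4 replicate 1, where 1 cell gave 99.4% of the UMIs. Ighg2c, the IgG2 subclass of this strain that is typical of responses to interferon-gamma, ranged from 0.184 CPM, a single UMI, in control replicate 1 to 11920 CPM in HFD+F+CCl4 replicate 3, where 1 cell gave 99.9% of the UMIs. Ighg1 stayed at or below 37.9 CPM and Ighg3 at or below 75.1 CPM in every mouse. The Ighg2b and Ighg2c levels of those mice rest on single cells, and no IgG gene passed the test in B cell-like cells in any of the 3 comparisons.

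As a share of all heavy chain UMIs in B cell-like cells, which does not depend on depth, IgM made up 33.7% on average in the controls and 47.4% in the NASH mice, IgA 34.3% and 21.5%, IgD 12.4% and 4.69%, and the 4 IgG genes 19.7% and 26.5%. None of these shares passed after adjustment over the 5 shares tested (exact two-sided permutation test over the 28 splits, adjusted p from 0.179 to 0.750). The Iglc2 share of Igkc plus Iglc2 was 7.99% in the controls and 2.77% in the NASH mice, with an exact permutation p of 0.0357, the smallest these 8 mice can give, and an adjusted p of 0.179. A single share at that smallest p cannot pass after adjustment over 5 shares. The test therefore could not show a difference in 1 share alone, and no lack of difference is read from it. Between the models the smallest exact permutation p that 3 against 3 mice can give is 0.1, so no share could pass. The IgG share alone ran from 0.496% in control replicate 1 (95% Wilson interval 0.445 to 0.554%) to 60.8% in HFD+F+CCl4 replicate 1 (59.9 to 61.6%), an interval that covers counting error only. Once the plasma cell-like cells were left out, IgM made up 59.6 to 79.3% of heavy chain UMIs in each mouse.

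**Figure D3:**
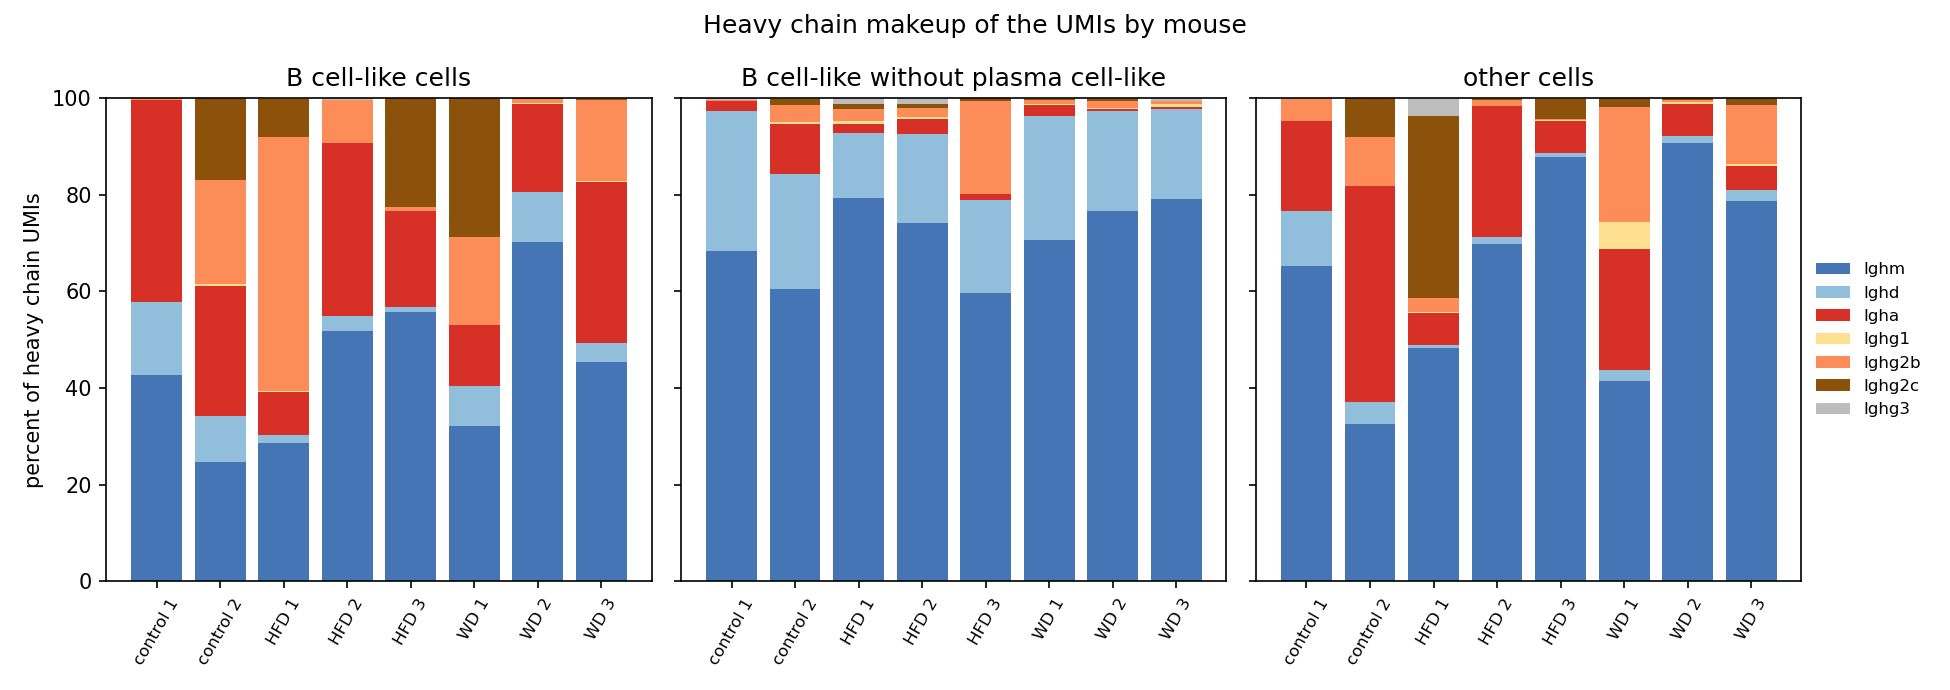
Percent of heavy chain UMIs from each heavy chain gene (stacked bars) in each mouse, for all B cell-like cells, for B cell-like cells without the plasma cell-like ones and for the other cells. In the middle panel Ighm takes 59.6 to 79.3% in every mouse, while in the left panel it takes 24.7 to 70.3% and the IgG genes 0.496 to 60.8%.

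The genes that accompany antibody production were read from lists, beside the 5.75% of all genes called in HFD+F+CCl4 and the 10.9% in WD+F+CCl4. In WD+F+CCl4 the counts, 2 of 16 and 2 of 15 in the lists of B cell and plasma cell genes, were near that share. Of 15 plasma cell and secretion genes, 4 were higher in HFD+F+CCl4 than in control B cell-like cells and none lower, and without the plasma cell-like cells none was called. The 4 were Tent5c (log2 difference 2.18), which stabilizes immunoglobulin messages, Fkbp11 (2.49), a secretory folding gene, Xbp1 (1.57), the transcription factor of the secretory program, and Creld2 (1.94), an endoplasmic reticulum stress gene named here after its values were seen. Of 16 genes of the B cell receptor and B cell identity, 2 were lower in HFD+F+CCl4, namely Fcer2a, the low-affinity IgE receptor of follicular B cells (-1.37), and Pax5, the B lineage factor (-0.93). Both calls include the plasma cell-like cells, and the values without those cells are not given here. In WD+F+CCl4, Fcer2a (-0.998) and Blk (-0.98), a receptor-proximal kinase, were lower, and of the plasma cell list Mzb1, a chaperone of IgM assembly, was higher (2.36) and Irf4 lower (-0.87). Between the models Tent5c was lower in WD+F+CCl4 (-2.56). Of 9 class switching and germinal centre genes, 7 were tested, and Bach2, a repressor of plasma cell fate, was lower in both models (-1.36 and -1.22). S1pr2, a receptor that confines germinal centre B cells, was higher in WD+F+CCl4 (2.71). Bach2 was also lower in the other cells of both models (-1.07 and -1.19). Its difference is thus not particular to B cell-like cells, and its source was not tested. Of 9 immunoglobulin receptors and transporters, 8 were tested, and Fcrla was lower in WD+F+CCl4 (-0.88). Pigr, an epithelial and hepatocyte gene, was also called lower there (-4.75). B cell-like cells with a Pigr UMI were 20.9% and 19.3% in the controls and 0.648 to 1.35% under WD+F+CCl4. T or NK cell-like cells of the same mice stood at 20.3% and 12.97% against 0.281 to 0.931%. In HFD+F+CCl4 replicate 1 the classes were farther apart, at 20.61% of B cell-like and 5.536% of T or NK cell-like cells. The Pigr difference is not read as expression by B cells, and its source was not tested.

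In other cells, where UMIs of these genes can be free RNA taken up in the droplets as well as transcripts of the cell itself, Ighm, Ighd and Iglc2 were higher in control livers than in both models. Ighm stood at 488 and 918 CPM in the controls, 78.5, 193 and 93.3 CPM in the HFD+F+CCl4 mice, and 125, 161 and 113 CPM in the WD+F+CCl4 mice. Ighd stood at 85.1 and 132 CPM in the controls and at 0.928 to 6.91 CPM in the 6 NASH mice. Iglc2 stood at 87.9 and 227 CPM in the controls and at 1.43 to 8.63 CPM in the NASH mice. For all 3 genes both controls lay above every NASH mouse.

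In the edgeR quasi-likelihood test the log2 difference of Ighm from control was -2.33 (SE 0.451) in HFD+F+CCl4 and -2.11 (SE 0.449) in WD+F+CCl4, with adjusted p of 0.0136 and 0.0161. The difference for Ighd was -5.61 (SE 0.761, edgeR adjusted p = 0.00399) in HFD+F+CCl4 and -4.37 (SE 0.720, edgeR adjusted p = 0.00641) in WD+F+CCl4. That for Iglc2 was -5.92 (SE 0.675, edgeR adjusted p = 0.00243) and -4.53 (SE 0.635, edgeR adjusted p = 0.00367). Ighd and Iglc2 passed under every alternative run, including in T or NK cell-like cells alone and in monocyte- or macrophage-like cells alone, whereas the Ighm calls did not pass without control replicate 2 (-1.91 and -1.69, edgeR adjusted p = 0.0818 and 0.0979). Igkc stood at 993 and 4253 CPM in the controls, 216, 295 and 51.0 CPM in the HFD+F+CCl4 mice and 453, 154 and 93.0 CPM in the WD+F+CCl4 mice, and was called lower in HFD+F+CCl4 (-3.64, SE 0.954, edgeR adjusted p = 0.0386). That call was lost when any 1 of 6 mice was left out. The difference was -4.24 without control replicate 1 (edgeR adjusted p = 0.0693), -2.38 without control replicate 2 (0.211), -3.66 without HFD+F+CCl4 replicate 1 (0.0846), -4.22 without HFD+F+CCl4 replicate 2 (0.0658), -3.22 without HFD+F+CCl4 replicate 3 (0.0706), and it was -3.65 when WD+F+CCl4 replicate 2 was dropped (0.0584).

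Thus 4 of the 10 genes were called lower in other cells in HFD+F+CCl4, where 16.0% of 19546 tested genes were called and 7.03% were lower, and 3 in WD+F+CCl4, where 19.7% were called and 8.46% were lower. The median log2 difference of the 10 was -3.75 and -3.61, beside 0.05 and 0.03 for all genes, and none was called between the models, where 0.0% of genes were, with 3 of the 10 at an unadjusted p under 0.05. No gene at all was called between the models in edgeR, while 732 genes had an unadjusted p under 0.05 and DESeq2 called 42, among them Ighg3, for which 1 cell gave 95.4% of the UMIs of HFD+F+CCl4 replicate 1. Some of the UMIs in other cells came from single cells, since 1 cell gave 84.9% of the Ighg1 UMIs in WD+F+CCl4 replicate 1 and 94.2% of the Ighg2b UMIs in control replicate 1. When the 18 other cells with at least 4 of 7 plasma cell markers were left out, an alternative chosen after seeing the data, 7 of 10 were called lower in each model, where 16.1% and 19.8% of genes were called. The genes added were Igha (-5.09 and -6.05), Ighg2b (-5.62 and -5.38) and Jchain (-4.57 and -5.73) in both models and Igkc in WD+F+CCl4 (-4.70).

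Markers of B cells moved with these differences. Of 16 B cell receptor and identity genes, 13 were lower in the other cells of each model and 1, Cd72, was higher (1.77 and 1.72, named after its values were seen). Cd79a, the signalling partner of surface antibody, stood at 106 and 142 CPM in the other cells of the controls and 1.33 to 8.81 CPM in those of the NASH mice, with log2 differences of -5.24 and -4.14. Cd79b, its partner chain, was lower too (-2.01 and -2.15). Of 15 plasma cell genes, 1 was higher in HFD+F+CCl4 (Prdm1, 1.297) and none was called in WD+F+CCl4. Control replicate 2 had the shallowest cells, and barcodes that failed the cell filter held 16030 CPM of the 10 genes in that library, 3356 in control replicate 1 and 219 to 5111 in the NASH mice. Free RNA, B cell doublets and transcription in the cells themselves cannot be told apart in these sums, and their parts in the result were not tested.

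The makeup of the other cells differed between groups. T or NK cell-like cells were 4396 of 6316 and 925 of 1749 other cells in the controls, but 578 of 10709 to 1521 of 10260 in the HFD+F+CCl4 mice and 1068 of 10293 to 1320 of 9015 in the WD+F+CCl4 mice, while monocyte- or macrophage-like cells were 452 and 206 in the controls and 4275 to 6172 in the NASH mice. The part of this shift in the list genes, such as Tbx21, Bcl6, S1pr2, Prdm1, Cd72 and Fcrl5, was not tested. Among receptors that bind antibody, Fcmr, the receptor for IgM, was lower in the other cells of both models (-5.25 and -4.08), Fcrl5, a receptor of innate-like B cells, was higher (4.14 and 4.501), and Trim21, a cytosolic antibody receptor, was lower (-1.31 and -0.996). From the same list Fcrla was lower in HFD+F+CCl4 (-2.57), and in WD+F+CCl4 Pigr was lower (-3.65) and Fcgr2b higher (0.97). Of 9 class switching and germinal centre genes, Tbx21, a factor of T, NK and atypical B cells, was lower (-3.60 and -3.67), and Bcl6 (1.74 and 1.56) and S1pr2 (1.47 and 1.59) were higher. Ung (-1.51 and -1.16) and Bach2 (-1.07 and -1.19) were lower too. Fcrla, Pigr, Fcgr2b, Ung and Bach2 were named here after their values were seen. Over all genes 16.0% were called in HFD+F+CCl4 and 19.7% in WD+F+CCl4. Of the other constant segments, Iglc1 (-5.20) and Iglc3 (-4.17) were lower in HFD+F+CCl4 and neither was called in WD+F+CCl4.

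Across cell classes, Ighm followed a stable order at the top. Its median over mice was 3604 CPM in B cell-like cells without the plasma cell-like ones, 1142 in plasmacytoid dendritic cell-like cells, 231 in dendritic cell-like cells, 194 in T or NK cell-like cells, 115 in granulocyte-like cells and 81.2 in monocyte- or macrophage-like cells, and it was lower in the other classes. The range over mice in B cell-like cells (2839 to 4406 CPM) did not overlap that in plasmacytoid dendritic cell-like cells (909 to 1503 CPM), which in turn did not overlap that in dendritic cell-like cells (160 to 512 CPM). From dendritic cell-like cells down, the ranges of neighbouring classes overlapped.

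Plasmacytoid dendritic cells are interferon-producing cells of the dendritic lineage that share several genes with B cells. Here their Ighm level was 1136 and 1203 CPM in the controls, 1503, 1147 and 1011 CPM in the HFD+F+CCl4 mice, and 909, 917 and 1321 CPM in the WD+F+CCl4 mice. It was the highest of all non-B classes in 7 of 8 mice, and the exception was control replicate 2, where the monocyte- or macrophage-like class reached 1632 CPM with 79.0% of its UMIs from 1 cell. The controls lay within the range of the NASH mice, unlike in the other cells as a whole. HFD+F+CCl4 replicate 1 had 20 such cells and the other mice 192 to 417. After each cell was thinned to 800 UMIs, 52.5 to 69.0% of plasmacytoid dendritic cell-like cells in the other 7 mice had an Ighm UMI (72.4 to 97.8% before thinning, at median depths of 1066 to 4650 UMIs), against 6.79 to 38.6% of T or NK cell-like cells (15.1 to 50.7% before thinning, at 1150 to 2985 UMIs), a class that does not make antibody. Cells with under 800 UMIs were left out, 0 to 64 per mouse of the former and 1 to 187 of the latter.

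The chains that came with Ighm there were unlike those of B cells. In plasmacytoid dendritic cell-like cells the ratio of Igkc to Ighm UMIs was 0.888 and 1.25 in the controls and 0.171 to 0.356 in the NASH mice, whereas in B cell-like cells without the plasma cell-like ones it was 1.73 to 4.05. Ighm made up 73.2 to 98.1% of the heavy chain UMIs, and Jchain did not exceed 21.3 CPM. Cd79a ranged from 0 to 37.5 CPM in the NASH mice and was 152 and 118 CPM in the controls. Iglc2 ran from 14.9 to 298 CPM, with both controls above every NASH mouse. Its near copy Iglc3 ran from 542 to 1095 CPM without such a split. Both genes were highest in this class among non-B classes in all 8 mice. In B cell-like cells without the plasma cell-like ones Iglc2 was 971 to 2104 CPM and Iglc3 911 to 1434 CPM. Of the plasmacytoid dendritic cell-like cells, 18.2% ranked as likely doublets, and the mean Ighm level was 1143 CPM with them and 1266 CPM without them.

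**Figure D4:**
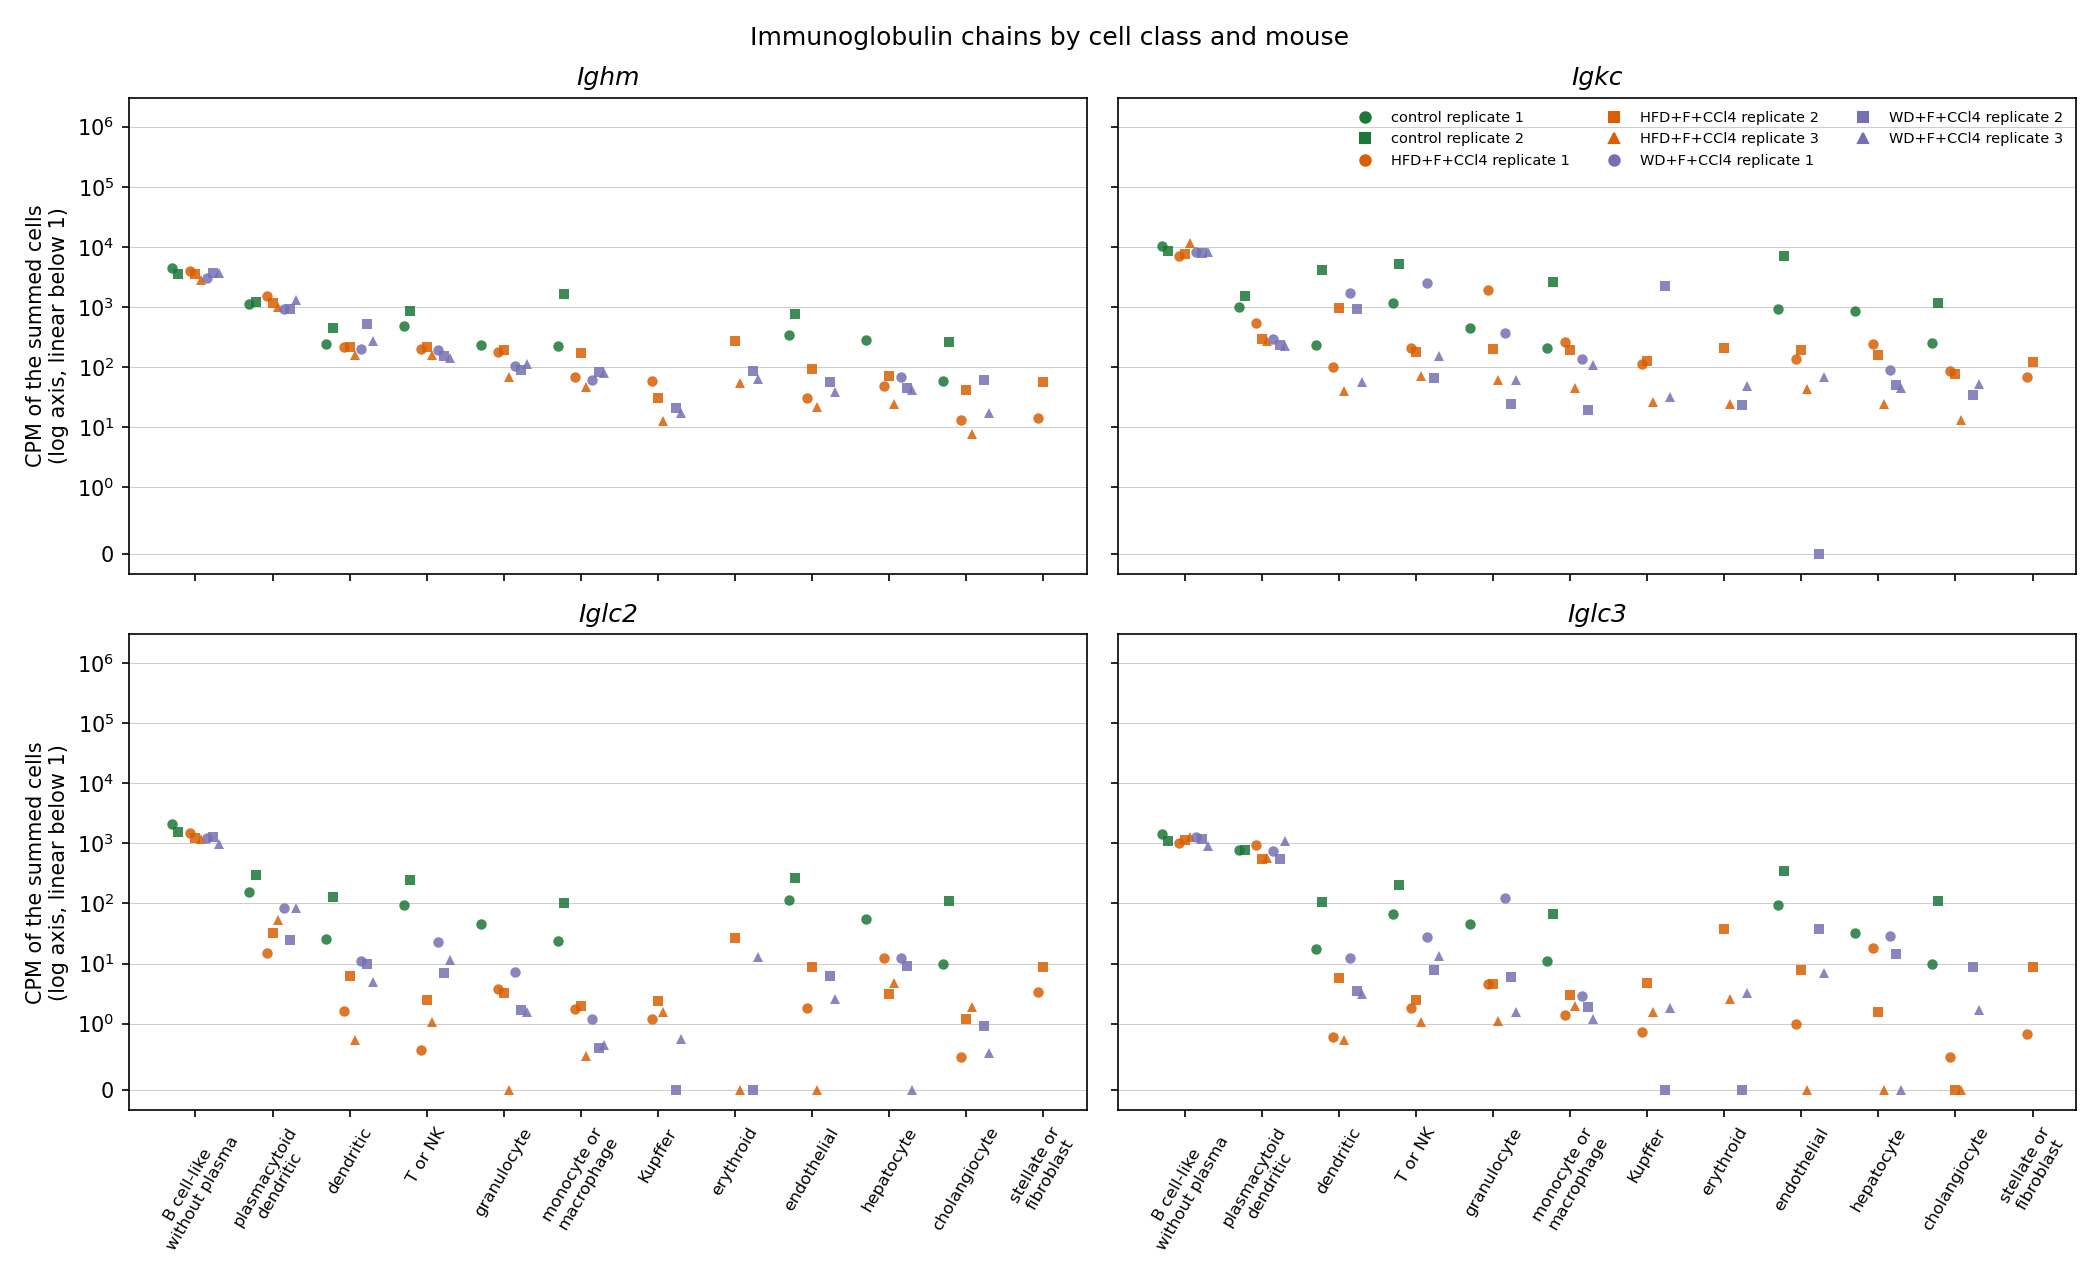
Level of Ighm, Igkc, Iglc2 and Iglc3 in CPM (vertical axis, logarithmic above 1 and linear below) by cell class, with 1 point per mouse that had at least 20 cells of the class, coloured by group and shaped by replicate number. Ighm (909 to 1503 CPM) and Iglc3 (542 to 1095 CPM) stand high in plasmacytoid dendritic cell-like cells of every mouse. Igkc and Iglc2 there are lower in the NASH mice than in the controls, though Iglc2 is still highest in this class among non-B classes.

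The makeup of the heavy chain UMIs was compared between B cell-like and other cells of the same mouse, where other cells include the plasmacytoid dendritic cell-like cells with their high Ighm. The IgM share of heavy chain UMIs was 43.9% in B cell-like and 64.3% in other cells on average and was higher in other cells in 8 of 8 mice (exact sign-flip permutation test, adjusted p = 0.0195). The IgD share was 6.61% and 3.12%, lower in other cells in 8 of 8 mice (exact sign-flip permutation test, adjusted p = 0.0195). Against T or NK cell-like cells alone neither difference passed (21.5 points for IgM and -2.31 for IgD, exact permutation adjusted p = 0.0781 and 0.117). The IgA (24.7% and 17.5%), IgG (24.8% and 15.1%) and Iglc2 (4.07% and 3.29%) shares did not pass either (exact permutation adjusted p = 0.242, 0.0781 and 0.242). With plasma cell-like cells left out of both sets, the IgM shares were 71.0% and 70.4% (higher in other cells in 5 of 8 mice, exact permutation adjusted p = 0.961). The IgD share was then 21.1% in B cell-like and 3.80% in other cells, and the Iglc2 share of both light chains 13.7% and 4.96%, each lower in other cells in 8 of 8 mice, while the IgA share was 2.75% and 13.4%, higher in 8 of 8 (exact permutation adjusted p = 0.0130 for all 3). The raw p behind these calls, 0.00781, is the smallest that 8 mice can give.

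The IgG gene with the most UMIs in the classes of other cells differed between some mice. In HFD+F+CCl4 replicate 1, Ighg2c had the most UMIs of the 4 IgG genes in 10 of 10 classes for which a highest could be called, although Ighg2b was highest in the B cell-like cells of that mouse. The highest gene also differed between other and B cell-like cells in WD+F+CCl4 replicate 1 (Ighg2b and Ighg2c) and WD+F+CCl4 replicate 2 (Ighg1 and Ighg2b). Ighg2c was also highest in 7 of 7 classes of HFD+F+CCl4 replicate 3, while Ighg2b was highest in 8 of 8 classes of WD+F+CCl4 replicate 3, 6 of 6 of HFD+F+CCl4 replicate 2 and 4 of 4 of control replicate 1. The classes of the remaining mice were split, with Ighg2b highest in 4 of 5 in control replicate 2 and 3 of 6 in WD+F+CCl4 replicate 1, and Ighg1 in 2 of 3 in WD+F+CCl4 replicate 2. In T or NK cell-like cells, for example, HFD+F+CCl4 replicate 1 held 51 Ighg2c and 10 Ighg2b UMIs, and HFD+F+CCl4 replicate 2 held 0 and 16. Some of these calls rest on very few UMIs. In control replicate 1, Ighg2b had 801 UMIs in T or NK cell-like cells, most from a single cell, and 3 to 4 in the other called classes. In WD+F+CCl4 replicate 2, granulocyte-like cells held 3 Ighg1 and 2 Ighg2c UMIs. The classes of a mouse share a library, so this agreement between classes is not a count of independent samples.

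The level in other cells was set against the share of B cell-like cells in the same library. Over all 8 mice Pearson's r was 0.306 for Ighm, 0.114 for Igkc and 0.0942 for Jchain (exact permutation, adjusted p = 0.844 for each of the 3), and Spearman's rho was 0.690, 0.738 and 0.738 (adjusted p = 0.0694, 0.0688 and 0.0688 by the same exact permutation). Without control replicate 1 and WD+F+CCl4 replicate 1, the 2 mice farthest from the median share, r was 0.562, 0.494 and 0.492. Control replicate 2 stood apart, with the highest level of all 3 genes at a B cell-like share of 4.97%. There an unnamed cluster that scored for B cell, hepatocyte and erythroid markers, and was in neither set, held 48.25% of kept cells. In control replicate 1 another unnamed cluster, which scored for hepatocyte, B cell and T or NK cell markers and was also left out, held 17.55%. The highest r with 1 mouse left out, 0.862, 0.953 and 0.943, came without control replicate 2. That mouse was singled out after its values were seen, so these 3 values are a description. Within the 6 NASH mice r was 0.269, 0.809 and 0.781 (exact permutation adjusted p = 0.624, 0.106 and 0.106).

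**Figure D5:**
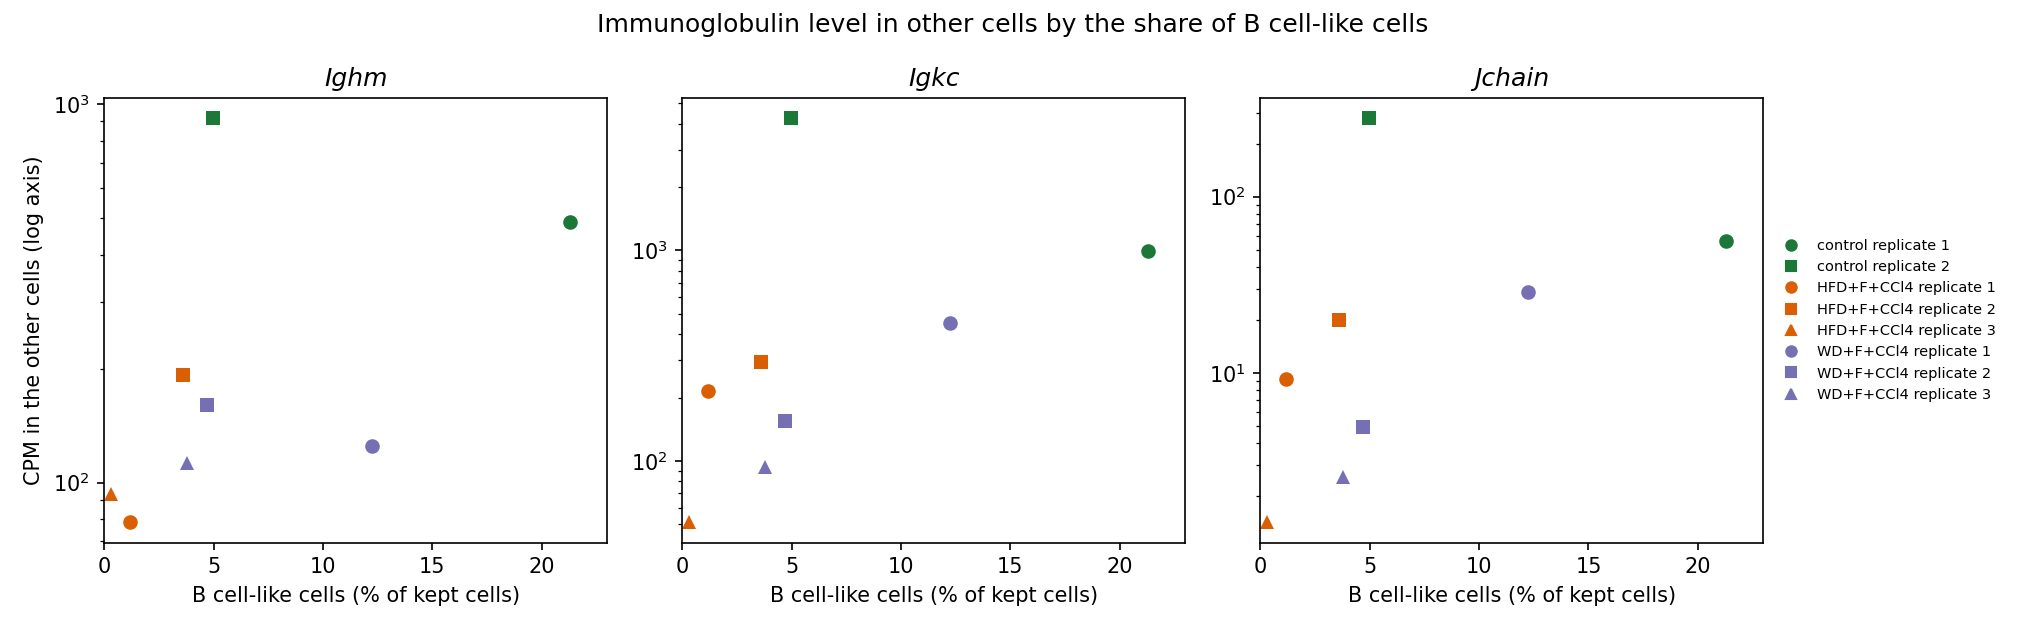
Level of Ighm, Igkc and Jchain in other cells (vertical axis, CPM, logarithmic) against the share of B cell-like cells among kept cells (horizontal axis, percent), with 1 point per mouse. Control replicate 2 has the highest level of each gene at a share of 4.97%, away from the order of the other 7 mice. An unnamed cluster with 48.25% of the kept cells of that mouse is in neither set.

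The genes outside the immunoglobulin loci whose levels were most like those of Ighm over 79 class-by-mouse sums were Tnfrsf13c, the receptor for the B cell survival factor BAFF (Pearson's r of log2(CPM + 1) 0.871), Siglecg (0.853), Gm30211 (0.852), Fcrla (0.851) and Cd79b (0.847). For Igkc they were Cd79a (0.863), Fcer2a (0.863), Pou2af1 (0.853), Ms4a1 (0.847) and Pax5 (0.843), and for Jchain Fcer2a (0.857), Gm42870 (0.843), Pou2af1 (0.836) and B3gnt5 (0.834). These values describe sums that share libraries and depth.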

How the data were processed

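Livers of 8 mice were measured by 10x single-cell RNA sequencing, 1 library per mouse. The authors deposited UMI counts per gene and barcode, made with Cell Ranger on GRCm38. The study's methods and the file header name different Cell Ranger versions. Counts were used as deposited, from barcodes that held over 500 genes and drew less than 25% of UMIs from mitochondrial genes. Cells were clustered in Scanpy 1.11.5 (Leiden resolution 0.42) without 397 immunoglobulin genes and named from fixed markers, and likely doublets were ranked with Scrublet and kept. Counts summed per mouse over B cell-like and over other cells were tested with edgeR 4.0.16 (quasi-likelihood, TMM, filterByExpr with a minimum count of 10, 1 fit over 8 mice, Benjamini-Hochberg adjusted p under 0.05), and DESeq2 1.42.0 served as an alternative. Shares and correlations were tested by exact permutation in SciPy 1.17.1. The tests were tested on simulated data. Members and lists were chosen with earlier results of these data known. Of each list the 3 called genes with the lowest p in a comparison are named, and the 5 genes outside the immunoglobulin loci most like Ighm, Igkc and Jchain. A gene that this rule names is not reported here. Sequences and positions are from GENCODE M21. Leaving out the plasma cell-like cells, or keeping single classes of other cells, was chosen after seeing the data.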

Additional observations from a re-analysis of the deposited data

Results flagged for a closer look

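In 9 of 20 gene and cell set groups of the 6 NASH mice, the highest mouse lay farther from the rest than Dixon's 95% limit for 6 samples allows. Chance flags about 1 in 20 groups, and the genes of a mouse are not independent. In B cell-like cells HFD+F+CCl4 replicate 3, with 32 such cells of which 6 were plasma cell-like, stood apart for Ighm (29630 CPM), Igkc (164500 CPM), Iglc2 (2453 CPM) and Ighg2c (11920 CPM, 99.9% from 1 cell). HFD+F+CCl4 replicate 1 stood apart for Ighg2b there (19010 CPM, 99.4% from 1 cell). In other cells WD+F+CCl4 replicate 1 stood apart for Ighg1 (17.06 CPM, 84.9% from 1 cell) and Ighg2b (71.81 CPM, 54.4% from 1 cell). HFD+F+CCl4 replicate 1 stood apart for Ighg2c (61.18 CPM, 51.1% from 1 cell) and Ighg3 (6.134 CPM, 95.4% from 1 cell).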

How the results depend on the processing

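Of the alternatives for the 10 genes' fold changes, 327 kept direction and side of the threshold, 32 passed only then, 32 no longer passed and 10 turned direction. The causes were not tested. Without plasma cell-like cells the HFD+F+CCl4 differences in B cell-like cells were -0.23 for Ighm, -0.19 for Igkc and -0.0011 for Jchain. Igha in WD+F+CCl4 B cell-like cells (-0.21) was 0.26 with over 1000 genes per cell, 0.20 without doublets and -1.22 to 0.18 with 1 mouse left out. Ighg2b in WD+F+CCl4 other cells (-2.01) was 1.29 in T or NK cell-like cells and -3.96 to 0.04 with 1 mouse left out.

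Genes called in B cell-like cells in HFD+F+CCl4 (552) numbered 959 without a filter, 232 without doublets, 1721 with cells chosen by their own markers and 124 to 544 with 1 mouse left out. In WD+F+CCl4 (1044) they numbered 1592, 504 without doublets and 344 to 1192. Between the models (25) they numbered 46 in DESeq2, 189 without a filter, 0 by own markers and 0 to 41. In other cells 3133 genes in HFD+F+CCl4 became 957 in T or NK cell-like cells, 972 in monocyte- or macrophage-like cells and 1027 to 3068 with 1 mouse left out, and 3844 in WD+F+CCl4 became 1438, 1239 and 1594 to 4379. Between the models 0 became 42 in DESeq2. Scaling by library size alone moved the median of all genes to -0.15 in B cell-like cells of both models, and to -0.08 and -0.21 in other cells. It turned 371 higher and 181 lower into 277 and 250 (HFD+F+CCl4, B cell-like), 620 and 424 into 461 and 555 (WD+F+CCl4, B cell-like), 1759 and 1374 into 1553 and 2122 (HFD+F+CCl4, other), and 2191 and 1653 into 1640 and 2775 (WD+F+CCl4, other).

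The deviations of mice with the same replicate number correlated at -0.111 to 0.004 in B cell-like and -0.633 to 0.078 in other cells. With 2 or 3 mice per group these values cannot show whether the number marks a shared batch. With the replicate block 355, 722 and 21 genes were called in B cell-like cells and 1031, 1583 and 0 in other cells, and Ighd (-1.08, edgeR adjusted p = 0.0539) and Jchain (1.16, 0.0974) in B cell-like cells and Igkc in other cells (-3.14, 0.0815), all in HFD+F+CCl4, did not pass.

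In B cell-like cells the difference in IgG share between NASH and control was -1.11 points without doublets and -12.3 to 26.0 with 1 mouse left out. Between the models that of IgM was -2.22 with over 1000 genes per cell, -0.0716 without doublets and -6.72 to 12.4 with 1 mouse left out. That of IgA was 7.83, 0.0936 under 10% mitochondrial UMIs, 10.2 without doublets and -6.35 to 7.08, that of IgG -21.9 to 5.44, and that of Iglc2 -1.01 without plasma cell-like cells. Other minus B cell-like cells, with over 1000 genes per cell the IgD difference was -1.25 and the Iglc2 difference 0.607. By own markers Iglc2 was 1.35 and IgG -18.8. Without plasma cell-like cells in the B cell-like set alone IgM was -6.70, IgA 14.7, IgG 9.94 and Iglc2 -10.4. Against T or NK cell-like cells alone IgM was 21.5 and IgD -2.31, and neither passed. With over 1000 genes per cell r was 0.870 for Ighm and 0.787 for Igkc, and with 1 mouse left out r ran from 0.0997 to 0.862 for Ighm, 0.0391 to 0.953 for Igkc and 0.0207 to 0.943 for Jchain.

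The 2 controls, the 32 B cell-like cells of HFD+F+CCl4 replicate 3 and the shallow control replicate 2 limit these comparisons.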
